A study of Mus musculus with 48 samples.

Results

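The genes described here code for 6 proteins that bring fatty acids into liver cells. They are Cd36, Vldlr, Slc27a1, Slc27a2, Slc27a4 and Slc27a5, and they were chosen by gene name among the probes of the array that are not controls. All 6 were measurable among the 20486 genes that passed the filter on dim probes, through 8 probes.

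Liver RNA came from male mice with a hepatocyte-specific deletion of p110α (p110αhep-/-, labelled LKO) and from their controls (p110αhep+/+, labelled LWT). p110α, the product of Pik3ca, is the catalytic subunit of a phosphoinositide 3-kinase that acts below the insulin receptor. Both genotypes carried floxed alleles of the gene. The p110αhep-/- mice also carried an albumin-Cre transgene, which is active in hepatocytes, and the controls were littermates without Cre, so Cre and the deletion cannot be told apart. From 12 weeks of age the mice received a control diet (CTRL) or a high-fat diet (HFD, 60% of calories as fat) for 12 weeks. Livers were taken at ZT16, 16 h after lights on, from mice that were fed or had been fasted for 24 h. The 3 factors give 8 groups of 6 mice, and each mouse had its own one-colour array.

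CD36 and the VLDL receptor bind fatty acids or lipoproteins at the cell surface. The Slc27a genes code for the fatty acid transport proteins, which carry an acyl-CoA synthetase activity that traps fatty acids inside the cell as CoA esters. In liver, Slc27a2 and Slc27a5 are the abundant members of this family, and the product of Slc27a5 also activates bile acids for conjugation. Several of these genes are textbook targets of the nuclear receptors PPARα, which is active in the fasted liver, and PPARγ, which rises in fatty liver.

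The sequences before the start sites are shown because Cd36, Slc27a1 and Slc27a2 responded to diet, genotype or fasting in different ways, and Vldlr to diet. Each run is the 250 bases before a RefSeq start site (GRCm38.p6), written 5′ to 3′ on the strand of the gene. Where RefSeq lists several starts, the most downstream was taken. Capitals mark the nuclear receptor core motif AGGTCA, the CCAAT box and the E-box CACGTG, each on either strand. The runs lie at chr5:17835897-17836146 (minus strand) for Cd36, chr19:27216770-27217019 (plus strand) for Vldlr, chr8:71570344-71570593 (plus strand) for Slc27a1 and chr2:126552774-126553023 (plus strand) for Slc27a2.
Cd36: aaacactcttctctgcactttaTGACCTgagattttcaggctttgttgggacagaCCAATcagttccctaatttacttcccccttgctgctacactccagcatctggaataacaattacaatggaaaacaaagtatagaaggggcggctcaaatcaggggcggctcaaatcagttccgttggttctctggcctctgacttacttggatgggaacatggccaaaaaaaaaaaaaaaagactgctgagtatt
Vldlr: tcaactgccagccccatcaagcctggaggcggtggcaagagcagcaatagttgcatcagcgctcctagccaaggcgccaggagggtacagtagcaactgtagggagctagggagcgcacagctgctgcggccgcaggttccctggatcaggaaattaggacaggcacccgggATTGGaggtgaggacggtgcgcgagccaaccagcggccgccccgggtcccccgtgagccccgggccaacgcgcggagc
Slc27a1: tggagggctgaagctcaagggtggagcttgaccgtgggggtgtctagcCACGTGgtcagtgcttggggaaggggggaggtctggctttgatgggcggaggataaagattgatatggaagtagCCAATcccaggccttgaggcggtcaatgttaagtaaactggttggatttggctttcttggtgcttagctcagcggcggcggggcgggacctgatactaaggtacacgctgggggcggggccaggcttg
Slc27a2: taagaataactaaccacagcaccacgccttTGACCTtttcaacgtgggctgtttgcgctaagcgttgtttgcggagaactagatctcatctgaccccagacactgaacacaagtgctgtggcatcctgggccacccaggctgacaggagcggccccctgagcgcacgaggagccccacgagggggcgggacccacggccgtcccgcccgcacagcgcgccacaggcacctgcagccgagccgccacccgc

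AGGTCA was present on the reverse strand in the Cd36 run, 228 bases before the start, and in the Slc27a2 run, 220 bases before it. Among 32851 promoters of the same length, 14% held this motif on either strand. The direct repeat of this motif with 1 base between its copies, the layout of a PPAR response element, was found in 0.0335% of promoters on either strand. It was in none of the 8 starts read for the members, which include none for Slc27a5. A CCAAT box stood 195 bases before the Cd36 start, 128 bases before the Slc27a1 start and, on the reverse strand, 78 bases before the Vldlr start, and 33.8% of promoters held one. The Slc27a1 run held an E-box 202 bases before the start, as did 6.02% of promoters. TATAAA, found in 12.4% of promoters, was in none of these 4 runs. A match of letters is a description of the sequence and not a binding site.

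The arrays had 50.12% to 57.44% of probes well above background, with no saturated spot. The hepatocyte markers Alb, Apoa1, Ttr, Cyp2e1, Tat and Fgb were above background on all 48 arrays. The Pik3ca probe was not lower in p110αhep-/- liver. Its differences were 0.39 ± 0.08 (log2, SE) in fed and 0.08 ± 0.08 in fasted mice on CTRL diet, and 0.58 ± 0.08 in fed and 0.25 ± 0.08 in fasted mice on HFD, called except in fasted mice on CTRL diet. Whether it lies in the floxed exons is not known from the files, so it does not check the deletion. Replicate 2 of the fed p110αhep+/+ group on CTRL diet and replicate 3 of the fed p110αhep-/- group on HFD were nearest to the mean of another group, the fed p110αhep-/- group on CTRL diet. Their fitted weights were 0.578 and 0.349, against 1.708 for the best array. Leaving both arrays out altered none of the 108 calls made for the 6 genes (6 genes in 18 comparisons), and values without them are given where they bear on a result. In bulk liver RNA, fewer cells of a type and less RNA per cell cannot be told apart.

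Values below are normalised log2 signals, so a difference of 1 is a doubling, and n is 6 mice per group throughout. A gene was called changed when the adjusted p of its brightest probe was at most 0.05. Levels of different genes come from different probes and are not set against each other.

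**Figure D1:**
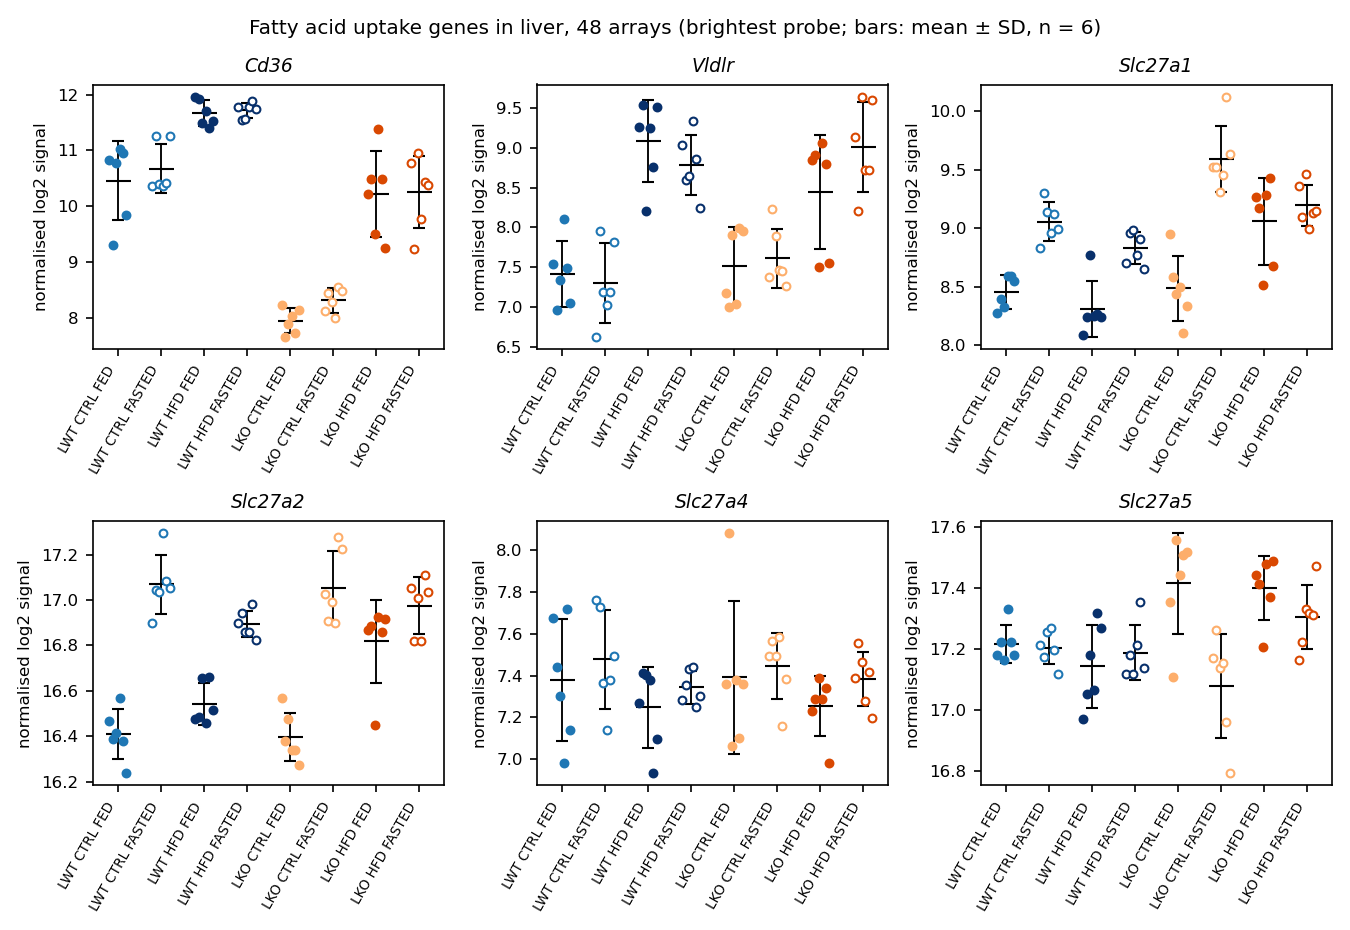
Normalised log2 signal (vertical axis) of the brightest probe of each gene on every array, by group (horizontal axis); filled points are fed and open points fasted mice, and bars give the mean and SD of 6 mice. Cd36 sits lowest in the p110αhep-/- groups on CTRL diet, between 7.65 and 8.55, and Vldlr rises with HFD in both genotypes.

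Cd36, the scavenger receptor that takes up long-chain fatty acids, was lower in p110αhep-/- than in p110αhep+/+ liver in every one of the 4 genotype comparisons and higher on HFD in every one of the 4 diet comparisons. Fasting did not move it past the threshold in any group, although a fit of only the arrays compared called it in p110αhep-/- mice on CTRL diet (0.315, adjusted p = 0.0436, against 0.342 in the fit of all arrays). Its probe lies at chr5:17288600-17288659 (mm9, minus strand) and was above background on all 48 arrays.

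On CTRL diet, fed p110αhep+/+ mice had a lowest value of 9.31, a median of 10.80 and a highest of 11.03. Fed p110αhep-/- mice on the same diet had 7.65, 7.96 and 8.23. All mice of the deleted group lay below all controls. In fasted mice on CTRL diet the values were 10.37, 10.41 and 11.25 in p110αhep+/+ and 7.99, 8.36 and 8.55 in p110αhep-/- liver, again with a gap between the groups. The differences were -2.61 ± 0.25 (log2, SE; 6.09-fold lower; adjusted p = 1.12e-10) in fed and -2.38 ± 0.24 (5.22-fold lower; adjusted p = 2.99e-10) in fasted mice.

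On HFD, Cd36 reached 11.41, 11.62 and 11.97 (lowest, median, highest) in fed p110αhep+/+ mice. Fed p110αhep-/- mice on HFD spread from 9.25 over 10.35 to 11.38. The highest of them lay just below the lowest control. Fasted mice on HFD had 11.55, 11.76 and 11.89 in p110αhep+/+ and 9.23, 10.41 and 10.95 in p110αhep-/- liver. The genotype differences were smaller than on CTRL diet, at -1.35 ± 0.25 (adjusted p = 3.32e-05) in fed and -1.49 ± 0.25 (adjusted p = 1.08e-05) in fasted mice. Within the 2 washing batches of the arrays the genotype differences were -2.69 and -2.70 in fed and -2.12 and -2.71 in fasted mice on CTRL diet. On HFD they were -1.16 and -1.72 in fed and -1.89 and -0.955 in fasted mice.

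The diet difference of Cd36 was 1.11 ± 0.23 in fed and 1.05 ± 0.24 in fasted p110αhep+/+ mice (adjusted p = 0.000463 and 0.00169). In p110αhep-/- mice it was 2.36 ± 0.26 in fed (5.15-fold; adjusted p = 2.1e-08) and 1.94 ± 0.25 in fasted mice (3.85-fold; adjusted p = 1.45e-06). In none of these 4 comparisons did the diet groups overlap. Both calls in p110αhep+/+ mice were lost in washing batch 2 alone. Over 19 other settings the differences ran from 0.924 to 1.24 in fed and from 0.813 to 1.28 in fasted p110αhep+/+ mice. The difference between the genotypes in the HFD response was 1.25 ± 0.35 in fed mice (95% interval 0.552 to 1.95; adjusted p = 0.0398) and 0.89 ± 0.35 in fasted mice (interval 0.192 to 1.59; adjusted p = 0.126). The call in fed mice was fragile: it was lost when any of 12 single arrays was left out (1.06 to 1.47, highest adjusted p 0.0857) and under 10 of 19 other settings (0.98 to 1.53, adjusted p from 0.00986 to 0.623). The difference in fasted mice was called in washing batch 2 alone (1.76, adjusted p = 0.0417). It was also called without replicate 2 of the fasted p110αhep-/- group on HFD (1.14, adjusted p = 0.0491).

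Fasting differences of Cd36 were 0.09 ± 0.24 and 0.03 ± 0.23 in p110αhep+/+ mice on CTRL diet and HFD, and 0.31 ± 0.24 and -0.11 ± 0.27 in p110αhep-/- mice. The last of these differed in sign between the washing batches, at -0.915 in the one and 1.02 in the other. Ranked by mean, the p110αhep+/+ groups on HFD stood highest (11.72 fasted, 11.67 fed) and differed by less than their pooled SD. The p110αhep+/+ groups on CTRL diet (10.67 and 10.45) and the p110αhep-/- groups on HFD (10.26 and 10.22) followed, with no neighbouring pair among these 4 apart by more than its pooled SD. The p110αhep-/- groups on CTRL diet were last, at 8.31 fasted and 7.94 fed. Of the spread of Cd36 over the 48 arrays, 89.6% lay between groups.

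The genes whose levels ran closest to Cd36 over the 48 arrays were Pparg, the nuclear receptor PPARγ (Pearson r = 0.951), Chchd6, a mitochondrial inner membrane protein (0.948), and Cfd, the complement factor adipsin (0.94). After the group means were removed the same correlations were 0.752, 0.767 and 0.733. These are descriptions over arrays that share groups and normalization.

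Cfd is also an adipocyte marker, and it moved with Cd36. Its median was 11.69 in fed p110αhep+/+ and 5.64 in fed p110αhep-/- mice on CTRL diet, and 13.28 and 8.89 on HFD. With Cfd, the summed linear signal of the adipocyte list (Lep, Plin1, Retn and Cfd, 4 of 5 markers measured) ranged from 638.9 to 10810 in fed p110αhep+/+ and from 242.2 to 356.7 in fed p110αhep-/- mice on CTRL diet. Without Cfd, the sum of the other 3 had medians between 244.2 and 278 in the 8 groups, and a range of 208.4 to 298.6 on all arrays except replicate 5 of the fed p110αhep-/- group on HFD, at 489.1. Adipoq, the defining marker, was above background on 6 of 48 arrays, 1 in each of 6 groups, Plin1 on 21 and Retn on 25, so these had little room to fall. Lep was above background on all 48, and its genotype differences were 0.00 ± 0.13 in fed and -0.04 ± 0.13 in fasted mice on CTRL diet, 0.55 ± 0.13 in fed (adjusted p = 0.00107) and 0.00 ± 0.13 in fasted mice on HFD, the called one being opposite in sign to Cfd and Cd36. In fed mice on HFD the Lep values were 6.905, 7.063 and 7.447 (lowest, median, highest) in p110αhep+/+ liver. They were 7.19, 7.449 and 8.629 in p110αhep-/- liver. Without the 6 arrays with Adipoq above background the genotype differences of Cd36 were -2.48, -2.23, -1.32 and -1.49 in fed and fasted mice on CTRL diet and fed and fasted mice on HFD, and all 8 calls for genotype and diet remained. The part of adipocytes in the differences of Cd36 was not tested.

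**Figure D2:**
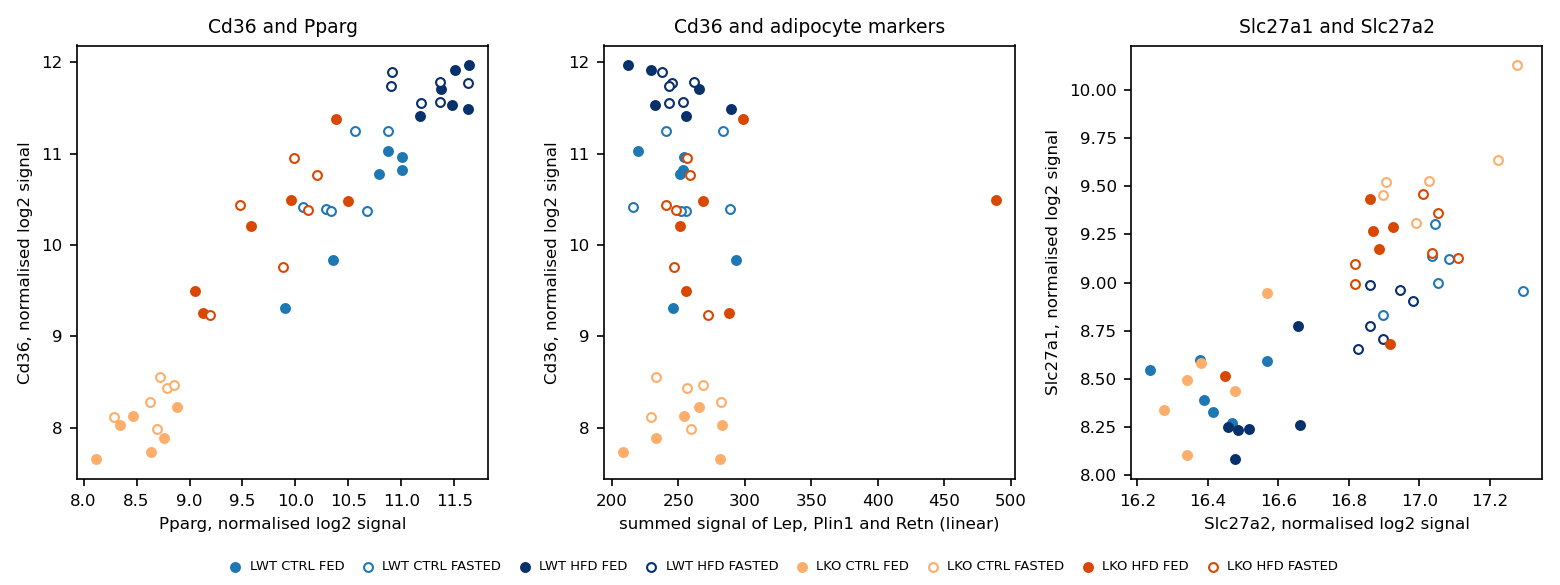
Each point is 1 of 48 arrays, coloured by genotype and diet, filled for fed and open for fasted mice; axes are normalised log2 signals except the middle horizontal axis, the summed linear signal of Lep, Plin1 and Retn. Cd36 follows Pparg (r = 0.951) and Slc27a1 follows Slc27a2 (r = 0.815), while the marker sum, which holds 2 genes near background, stays between 208.4 and 298.6 on all arrays but 1, at 489.1.

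Vldlr, the receptor for triglyceride-rich lipoproteins, was higher on HFD in both genotypes and both nutritional states, and neither genotype nor fasting changed it past the threshold. Its brightest probe lies at chr19:27324042-27324101 (mm9, plus strand). In fed p110αhep+/+ mice the values (lowest, median, highest) were 6.95, 7.41 and 8.11 on CTRL diet and 8.21, 9.25 and 9.54 on HFD, with no overlap. In fed p110αhep-/- mice they were 7.002, 7.54 and 7.997 on CTRL diet and 7.50, 8.82 and 9.07 on HFD. Here the groups overlapped, because 2 of the 6 mice on HFD stayed within the CTRL range.

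The HFD differences of Vldlr were 1.75 ± 0.25 (3.36-fold; adjusted p = 1.26e-06) in fed and 1.53 ± 0.25 (adjusted p = 3.52e-05) in fasted p110αhep+/+ mice, and 1.01 ± 0.27 (adjusted p = 0.0108) in fed and 1.32 ± 0.27 (adjusted p = 0.00077) in fasted p110αhep-/- mice. The difference between genotypes in the HFD response was -0.74 in fed mice (95% interval -1.49 to 0.00172; adjusted p = 0.289), so a difference of that size was neither shown nor excluded by the interval. The call in fed p110αhep-/- mice was lost without replicate 2 of that group on HFD (0.875 to 1.21 over all single arrays left out; highest adjusted p 0.0638). Without the 2 arrays nearest to another group it was 1.09. It was 0.748 in washing batch 2 alone, where its call was lost (adjusted p = 0.456). The difference in fasted p110αhep-/- mice was 0.949 in washing batch 1 alone, where its call was lost as well (adjusted p = 0.107).

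Genotype differences of Vldlr were 0.16 ± 0.26 and 0.35 ± 0.25 on CTRL diet and -0.58 ± 0.26 and 0.14 ± 0.27 on HFD, in fed and fasted mice (adjusted p from 0.0881 to 0.714). The third of these was called when replicate 3 of the fed p110αhep+/+ group on HFD was left out (-0.721, adjusted p = 0.0292). Fasting differences were -0.12 ± 0.25 and -0.34 ± 0.25 in p110αhep+/+ mice on CTRL diet and HFD, and 0.06 ± 0.26 and 0.38 ± 0.28 in p110αhep-/- mice. The last was -0.344 in one washing batch and 1.41 in the other (adjusted p = 0.0229 in the latter). By mean, the 4 groups on HFD (8.44 to 9.09) stood above the 4 on CTRL diet (7.30 to 7.61). The step between the lowest HFD group and the highest CTRL group was the single neighbouring pair apart by more than its pooled SD. The genes most like Vldlr were Cyp2b10, Cyp2b9 and Cyp2b13 (r = 0.892, 0.891 and 0.866), cytochromes P450 of drug metabolism whose sequences are close enough that their probes may share signal. The dimmer Vldlr probe followed the brightest one (r = 0.908 over 48 arrays) and was called in 3 of the same 4 diet comparisons. In fed p110αhep-/- mice it gave 0.47 ± 0.19 (adjusted p = 0.0994).

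**Figure D3:**
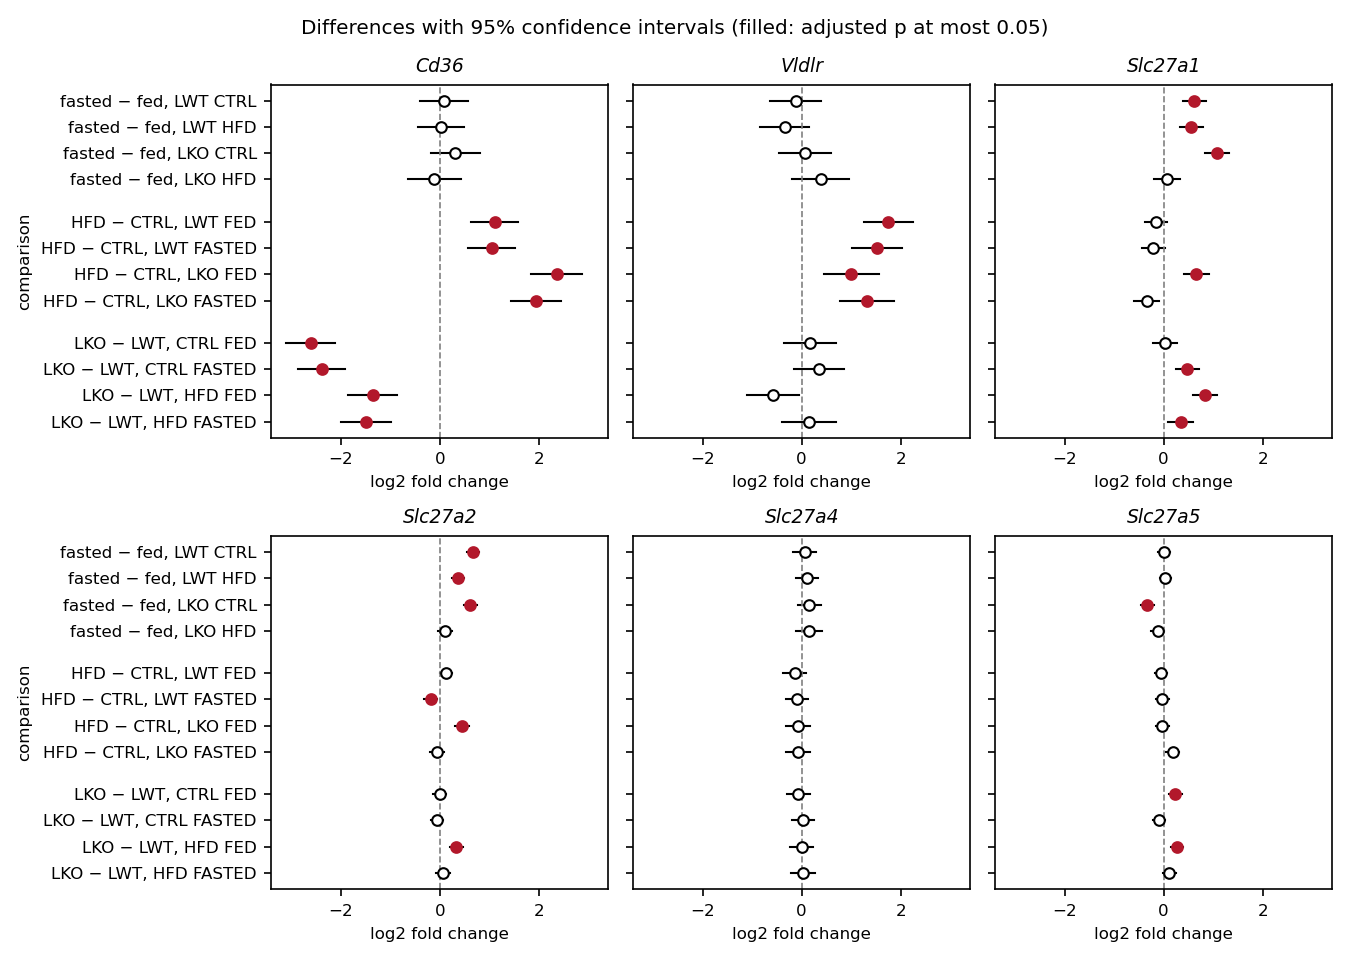
Log2 fold change (horizontal axis) of each gene in the 12 comparisons between 2 groups (vertical axis), with 95% confidence intervals; filled points have an adjusted p of at most 0.05. Cd36 was called for genotype and diet, and Vldlr for diet. Slc27a1 and Slc27a2 were called for fasting in all but the p110αhep-/- groups on HFD, and both in part of the genotype and diet comparisons. Slc27a5 was called for genotype in fed mice and for fasting in p110αhep-/- mice on CTRL diet, and Slc27a4 in none.

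Slc27a1 (FATP1), a transport protein known best from muscle and fat, rose on fasting in p110αhep+/+ mice on both diets and in p110αhep-/- mice on CTRL diet. It was also higher in p110αhep-/- than in p110αhep+/+ liver in 3 of the 4 genotype comparisons. Its probe lies at chr8:74110256-74110315 (mm9, plus strand). On CTRL diet, fed and fasted p110αhep+/+ mice had 8.27, 8.47 and 8.60, and 8.83, 9.06 and 9.30 (lowest, median, highest). Fed and fasted p110αhep-/- mice had 8.11, 8.47 and 8.95, and 9.31, 9.53 and 10.13. In both genotypes the fed and fasted groups lay apart.

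On HFD, fed and fasted p110αhep+/+ mice had 8.08, 8.25 and 8.77, and 8.65, 8.84 and 8.99. Fed p110αhep-/- mice on HFD had 8.51, 9.22 and 9.43, and fasted ones 8.99, 9.14 and 9.46. The p110αhep+/+ groups overlapped by 1 fed mouse, while 4 of the 6 fed p110αhep-/- mice were within the fasted range. The fasting differences were 0.62 ± 0.12 (adjusted p = 5.45e-05) and 0.56 ± 0.11 (adjusted p = 0.000163) in p110αhep+/+ mice on CTRL diet and HFD, 1.07 ± 0.12 (2.1-fold; adjusted p = 1.25e-09) in p110αhep-/- mice on CTRL diet and 0.06 ± 0.13 (interval -0.198 to 0.328) in p110αhep-/- mice on HFD.

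The change of the fasting response of Slc27a1 with diet was -1.01 ± 0.18 in p110αhep-/- mice (adjusted p = 0.000143) and -0.06 ± 0.16 in p110αhep+/+ mice (interval -0.387 to 0.267). HFD raised Slc27a1 in fed p110αhep-/- mice by 0.66 ± 0.13 (adjusted p = 0.000241) and gave -0.15 ± 0.11 in fed p110αhep+/+ mice, and the genotypes differed in this response by 0.82 ± 0.17 (adjusted p = 0.00509). In fasted p110αhep-/- mice the HFD difference had the other sign, at -0.34 ± 0.12 (adjusted p = 0.0695), and it was called without array weights (-0.398, adjusted p = 0.0464) and without replicate 3 of either the HFD or the CTRL group (-0.407 and -0.422). In fasted p110αhep+/+ mice it was -0.21 ± 0.12. Genotype differences were 0.03 ± 0.12 in fed and 0.48 ± 0.12 in fasted mice on CTRL diet, and 0.84 ± 0.12 and 0.35 ± 0.12 on HFD, the last 3 past the threshold. The smallest of these was lost without any of 3 single arrays (highest adjusted p 0.093). Washing batch moved these values: the genotype difference in fed mice on HFD was 1.15 in one batch and 0.421 in the other, and the change of the fasting response in p110αhep-/- mice -1.32 and -0.591. Without the 2 arrays nearest to another group they were 0.889 and -1.05. The difference between genotypes in the HFD response of fed mice ran from 0.386 to 1.2 over 19 other settings. Its call was lost in washing batch 2 alone. So were the calls for the genotype difference in fed mice on HFD, the changed fasting response in p110αhep-/- mice and HFD in fed p110αhep-/- mice. The genotype differences in fasted mice on CTRL diet and on HFD lost their calls there too (0.409 and 0.495, adjusted p = 0.153 and 0.0625). The fasting difference in p110αhep+/+ mice on HFD did as well (0.451, adjusted p = 0.084). In washing batch 1 alone the genotype difference in fasted mice on HFD was not called either (0.246, adjusted p = 0.184).

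Ranked by mean, fasted p110αhep-/- mice on CTRL diet stood highest for Slc27a1 (9.60), above the next group by more than the pooled SD. The fasted and fed p110αhep-/- groups on HFD and the fasted p110αhep+/+ group on CTRL diet (9.20, 9.06 and 9.06) did not differ beyond their spread. The 3 lowest, fed p110αhep-/- and p110αhep+/+ mice on CTRL diet and fed p110αhep+/+ mice on HFD, lay between 8.31 and 8.49 and did not differ beyond theirs. The genes most like Slc27a1 were Slc6a16 (r = 0.912), 1700039E15Rik (0.869) and Gstt2 (0.865).

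Slc27a2 (FATP2), the very long-chain acyl-CoA synthetase of the liver, followed Slc27a1 over the arrays (r = 0.815, and 0.558 after group means were removed). Its probe lies at chr2:126413890-126413949 (mm9, plus strand). Fasting raised it in the same 3 settings. On CTRL diet, fed and fasted p110αhep+/+ mice had 16.24, 16.40 and 16.57, and 16.90, 17.05 and 17.30. Fed and fasted p110αhep-/- mice had 16.28, 16.36 and 16.57, and 16.90, 17.01 and 17.28. Fed lay below fasted in both genotypes. The genotypes overlapped on this diet, with differences of 0.00 ± 0.07 in fed (interval -0.131 to 0.134) and -0.06 ± 0.06 in fasted mice (interval -0.183 to 0.0717).

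On HFD, fed and fasted p110αhep+/+ mice had 16.46, 16.50 and 16.66, and 16.83, 16.88 and 16.98. Fed and fasted p110αhep-/- mice had 16.45, 16.88 and 16.92, and 16.82, 17.02 and 17.11, so that 5 of the 6 fed mice were within the fasted range. The lowest fed value came from replicate 3, 1 of the 2 arrays nearest to another group. The fasting differences were 0.67 ± 0.06 and 0.36 ± 0.06 in p110αhep+/+ mice on CTRL diet and HFD (adjusted p = 4.5e-11 and 1.21e-05), 0.61 ± 0.07 in p110αhep-/- mice on CTRL diet (adjusted p = 3.84e-10) and 0.10 ± 0.07 in p110αhep-/- mice on HFD (interval -0.0426 to 0.245). This last value was called under the 2 other scalings, at 0.273 with the processed signal (adjusted p = 0.000702) and 0.301 with median scaling (adjusted p = 0.000704). Over all 19 settings its adjusted p ran from 0.000702 to 0.892.

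The change of the fasting response of Slc27a2 with diet was -0.51 ± 0.10 in p110αhep-/- mice (adjusted p = 0.000399) and -0.31 ± 0.09 in p110αhep+/+ mice (adjusted p = 0.0548, and from 0.00117 to 0.704 over 19 other settings, 6 of which called it). HFD raised Slc27a2 in fed p110αhep-/- mice by 0.46 ± 0.07 (adjusted p = 7.11e-06) and gave 0.13 ± 0.06 in fed p110αhep+/+ mice (adjusted p = 0.147), and the genotypes differed in this response by 0.33 ± 0.09 (adjusted p = 0.0432, lost without any of 17 single arrays and under 10 of 19 other settings, 0.255 to 0.415). In fed mice on HFD the p110αhep-/- group was higher by 0.33 ± 0.07 (adjusted p = 0.000119). In fasted mice on HFD the genotype difference was 0.07 ± 0.07 (adjusted p = 0.464), but it was called with the processed signal (0.227, adjusted p = 0.00192) and with median scaling (0.219, adjusted p = 0.00626). In fasted p110αhep+/+ mice the HFD difference was -0.18 ± 0.06 (adjusted p = 0.0459), a call kept under 8 of 19 other settings. The genes most like Slc27a2 were Cyp4a31, Cyp4a10 and Eci3 (r = 0.919, 0.917 and 0.909), enzymes of fatty acid ω-hydroxylation and of unsaturated fatty acid oxidation. By mean, the 4 fasted groups stood above the 4 fed groups (16.89 to 17.07 against 16.40 to 16.82), and no neighbours among the fasted groups, or between the lowest of them and the fed p110αhep-/- group on HFD, were apart by more than their pooled SD.

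Slc27a5 (FATP5), the bile acid-CoA synthetase of the hepatocyte, moved over a narrow range, with group means from 17.08 to 17.42. Its probe lies at chr7:13573701-13573760 (mm9, minus strand). In fed mice on CTRL diet the values were 17.16, 17.20 and 17.33 in p110αhep+/+ and 17.11, 17.48 and 17.56 in p110αhep-/- liver. In fed mice on HFD they were 16.97, 17.12 and 17.32, and 17.21, 17.43 and 17.49. The groups overlapped in both diets. The differences were 0.24 ± 0.06 (1.18-fold; adjusted p = 0.00533) and 0.27 ± 0.06 (1.21-fold; adjusted p = 0.000885). The call on CTRL diet was lost in each washing batch alone (0.227 and 0.162, adjusted p = 0.0934 and 0.306). On HFD it was lost in washing batch 2 alone (0.163, adjusted p = 0.277).

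In fasted p110αhep-/- mice on CTRL diet Slc27a5 had 16.79, 17.15 and 17.26, which was lower than in the fed group by -0.33 ± 0.06 (adjusted p = 4.79e-05). In p110αhep+/+ mice on the same diet the fasting difference was 0.00 ± 0.06 (interval -0.123 to 0.124), and the genotypes differed in this response by -0.33 ± 0.09 (adjusted p = 0.024). The decrease in p110αhep-/- mice depended on the scaling: it was -0.0736 with the processed signal, and the call was lost there and with median scaling. Other Slc27a5 values moved with the scaling as well. The genotype difference in fasted mice on HFD was 0.11 ± 0.07 (adjusted p = 0.184), and 0.272 and 0.255 with the processed signal and median scaling, both called. The HFD difference in fasted p110αhep+/+ mice was -0.02 ± 0.06, and -0.225 and -0.195 under them, both called. In fed p110αhep+/+ mice it was -0.06 ± 0.06, and -0.204 with the processed signal (adjusted p = 0.0168). The call for the difference between genotypes in the fasting response was lost under 10 of 19 other settings (-0.36 to -0.213). By mean, the fed p110αhep-/- groups on both diets and the fasted one on HFD (17.30 to 17.42) stood above the other 5 groups (17.08 to 17.22), and the step between them was the single one beyond its pooled SD. The gene most like Slc27a5 was Baat, which conjugates bile acids with taurine or glycine (r = 0.735), followed by an unnamed long non-coding transcript of the array and Cfhr2 (0.703).

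Slc27a4 (FATP4), a transport protein with a wide tissue range, was called in 0 of 18 comparisons by its brightest probe, at chr2:29672983-29673042 (mm9, plus strand), under limma's test, and in 0 at an unadjusted p of 0.05. Group means ran from 7.25 to 7.48, and 12.9% of its spread lay between groups. No neighbouring groups in this order were apart by more than their pooled SD. The intervals of its 4 genotype differences lay between -0.305 and 0.279. The genes most like it were Mr1, Ccdc77 and Mafa (r = 0.748, 0.747 and 0.726).

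The other Slc27a4 probe, at chr2:29672404-29672464, was dim, above background on 30 of 48 arrays, with 21 of them p110αhep+/+ and 9 p110αhep-/-. It passed the filter only through p110αhep+/+ groups, and in each p110αhep-/- group at most 3 of 6 arrays had it above background. Its genotype differences (-0.28 in fed and -0.19 in fasted mice on CTRL diet, -0.33 and -0.27 on HFD) therefore compare measured levels with values mostly at background, and nothing about Slc27a4 is read from them. The 2 probes did not move together (r = 0.0741) and had the same sign in 6 of 18 comparisons.

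**Figure D4:**
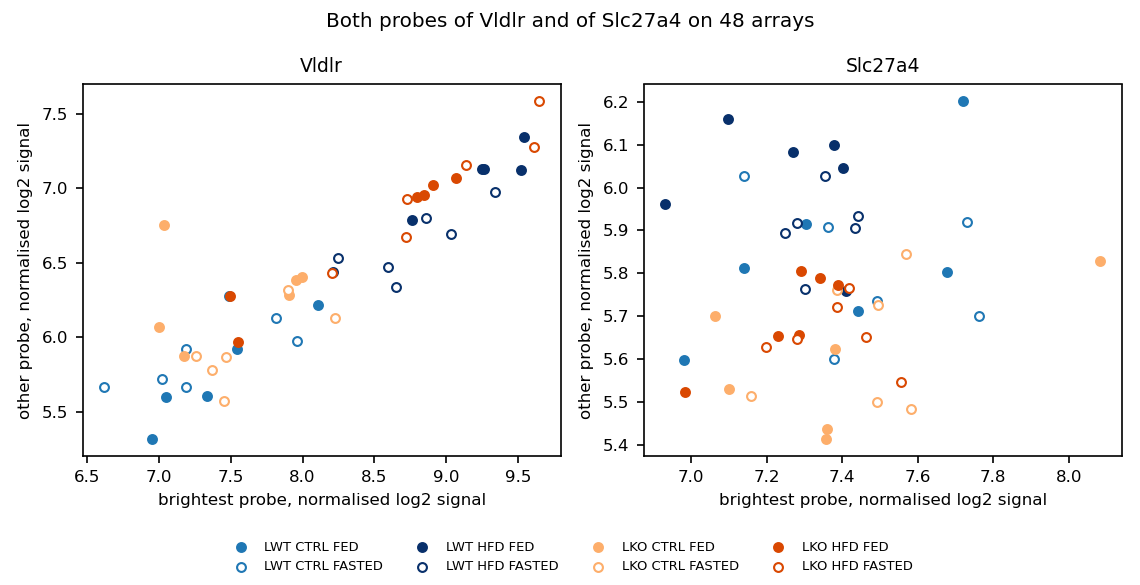
Normalised log2 signal of the other probe (vertical axis) against the brightest probe (horizontal axis) on 48 arrays for Vldlr and Slc27a4, coloured by genotype and diet, filled for fed and open for fasted mice. The Vldlr probes rise together (r = 0.908) and the Slc27a4 probes do not (r = 0.0741).

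Counted by comparison, fasting changed 2 of the 6 genes in p110αhep+/+ mice on CTRL diet (32.6% of all genes were called), 2 in p110αhep+/+ mice on HFD (28.6%), 3 in p110αhep-/- mice on CTRL diet (35.5%) and 0 in p110αhep-/- mice on HFD (28.6%), by limma, where at an unadjusted p of 0.05 the count was also 0. HFD changed 2 in fed p110αhep+/+ mice (24% of all genes), 3 in fasted p110αhep+/+ mice (16%), 4 in fed p110αhep-/- mice (12.3%) and 2 in fasted p110αhep-/- mice (10.8%). In fasted p110αhep-/- mice Slc27a2 (-0.06) was also called with the processed signal (-0.189, adjusted p = 0.0246). Slc27a5 (0.18, adjusted p = 0.068) was called there without washing batch correction, with slide as a block and without array weights (0.207, 0.204 and 0.224). Genotype changed 2 in fed mice on CTRL diet (21.7%), 2 in fasted mice on CTRL diet (24.9%), 4 in fed mice on HFD (33%) and 2 in fasted mice on HFD (36.9%). With the processed signal or median scaling Slc27a2 and Slc27a5 were also called in this last comparison. The count for HFD in fed p110αhep-/- mice stood furthest above the share over all genes. The 0 for fasting in p110αhep-/- mice on HFD became 1 (Slc27a2) with the processed signal or median scaling, and 2 (Cd36 and Vldlr) in washing batch 2 alone.

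For differences between responses, 3 of 6 genes were called for genotype by diet in fed mice (3.03% of all genes) and 0 in fasted mice (5.09%). The former count fell to 1, Slc27a1, without any of 12 single arrays, each of which ended the calls for both Cd36 and Slc27a2. These were replicates 1, 3, 4 and 5 of the p110αhep+/+ group on CTRL diet, 4 and 6 of the p110αhep+/+ group on HFD, 3 and 5 of the p110αhep-/- group on CTRL diet and 1, 2, 4 and 5 of the p110αhep-/- group on HFD, all fed. Genotype by fasting gave 1 on CTRL diet (3.97%) and 0 on HFD (3.49%). Slc27a1 was called on HFD in washing batch 1 alone (-0.905, adjusted p = 0.0359). The same call came without replicate 6 of the fed p110αhep-/- group (-0.588) or replicate 3 of the fed p110αhep+/+ group on HFD (-0.564). Slc27a2 was called on HFD without the 6 arrays with Adipoq above background (-0.311, adjusted p = 0.0418). On CTRL diet Slc27a1 was called without replicate 1 of the fed p110αhep-/- group (0.541, adjusted p = 0.045). Diet by fasting gave 0 in p110αhep+/+ (2.36%) and 2 in p110αhep-/- mice (8%). Among the counts of 0 by limma, an unadjusted p of at most 0.05 was reached by 2 genes for genotype by diet in fasted mice (Cd36 and Slc27a5), 2 for genotype by fasting on HFD (Slc27a1 and Slc27a2) and 1 for diet by fasting in p110αhep+/+ mice (Slc27a2). Since these comparisons share groups, their counts are not independent.

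Genes around the 6 members were read from lists of known function, whose counts are set beside the numbers of all 20486 genes called in the same direction. Of 8 genes linked to PPARγ in fatty liver, all 8 were lower in fed p110αhep-/- mice on CTRL diet (median -2.58, where the median over all genes lay between -0.02 and 0.03 in each of the 18 comparisons), 6 in fasted mice on CTRL diet (median -1.36), and 8 in fed and 8 in fasted mice on HFD (medians -2.08 and -1.84). Over all genes 2190, 2528, 3351 and 3631 were lower in these comparisons. Cidea, a lipid droplet protein, differed by -6.69 ± 0.49, Mogat1, a monoacylglycerol acyltransferase, by -2.72 ± 0.27, and Pparg itself by -2.15 ± 0.19 in fed mice on CTRL diet. HFD raised 6 of the 8 in fed mice of each genotype (medians 0.93 and 1.16), where 2532 and 1210 of all genes rose. In fasted mice it raised 5 in p110αhep+/+ liver (median 0.91; 1841 of all genes rose), but raised 1 and lowered 2 in p110αhep-/- liver (median 0.20; 1161 rose and 1059 fell). The raised gene was Pparg, by 1.15 ± 0.19 (adjusted p = 4.82e-05), and the lowered ones were Cidec, a lipid droplet protein, by -2.13 ± 0.44 and Gpd1, the glycerol phosphate dehydrogenase, by -0.68 ± 0.12.

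Of 14 PPARα targets, fasting raised 13 in p110αhep+/+ mice on CTRL diet (median 1.31) and all 14 in p110αhep-/- mice on CTRL diet (median 2.00), where 3279 and 3355 of all genes rose. On HFD it raised 5 and lowered 1 in p110αhep+/+ mice (median 0.22) and raised 8 and lowered 1 in p110αhep-/- mice (median 0.67), where 2831 and 2859 of all genes rose. Cyp4a10, a fatty acid ω-hydroxylase, rose by 2.77 ± 0.24 and Acot1, an acyl-CoA thioesterase, by 2.04 ± 0.20 in p110αhep+/+ mice on CTRL diet. The fasting response was smaller on HFD for 7 of the 14 in p110αhep+/+ (median -0.99) and for 13 in p110αhep-/- mice (median -1.74), where 307 and 875 of all genes had a called difference below 0, with -2.00 ± 0.26 for Ehhadh, an enzyme of peroxisomal β-oxidation, in p110αhep-/- mice. The same difference was -1.01 for Slc27a1 and -0.51 for Slc27a2, given above.

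Of 15 further genes of fatty acid binding and activation, 12 were measured, and Slc27a6, Acsl6 and Cav1 did not pass the filter. In fed mice on CTRL diet 6 were lower and 1 higher in p110αhep-/- liver (median -0.22; 2190 lower and 2258 higher over all genes), with -1.37 ± 0.17 for Fabp2 and -2.14 ± 0.29 for Fabp5, both cytosolic fatty acid binding proteins. In fasted mice on the same diet Fabp5 was higher in p110αhep-/- liver, by 1.85 ± 0.28 (adjusted p = 2.37e-06), and the genotypes differed in its fasting response by 3.99 ± 0.40 (adjusted p = 5.56e-09). Fabp4, a binding protein of adipocytes and macrophages, was higher on HFD in fed p110αhep-/- mice by 2.06 ± 0.31 and in fed p110αhep+/+ mice by 1.37 ± 0.28. On fasting, 2 rose and 6 fell in p110αhep+/+ mice on CTRL diet (median -0.28; 3279 rose and 3396 fell over all genes), among them Acsl1, an acyl-CoA synthetase, by 0.77 ± 0.10 and Dbi, the acyl-CoA binding protein, by -0.69 ± 0.09. In p110αhep-/- mice on CTRL diet the lean was not downward: 5 rose and 4 fell (median 0.12), against 3355 and 3924 of all genes. On HFD 1 rose and 5 fell in p110αhep+/+ mice, against 2831 and 3025 of all genes. In p110αhep-/- mice on HFD 1 rose and 4 fell, against 2859 and 3010 of all genes.

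Of 12 genes of lipoprotein uptake, HFD raised 2 and lowered 2 in fed p110αhep+/+ mice and raised 4 and lowered 2 in fed p110αhep-/- mice, with medians of -0.01 and 0.03. Over all genes 2532 rose and 2376 fell in the former and 1210 rose and 1318 fell in the latter. Lpl, the lipoprotein lipase, rose by 0.64 ± 0.18 and 1.34 ± 0.20. In fed mice on HFD, 5 were higher and 2 lower in p110αhep-/- liver (3410 and 3351 of all genes), with 0.96 ± 0.08 for Scarb1, the HDL receptor. Of 6 genes of bile acid synthesis and conjugation, the pathway of Slc27a5, 0 were higher and 4 lower in fed p110αhep-/- mice on CTRL diet (median -0.24; 2258 and 2190 of all genes), and 2 were higher and 2 lower on HFD (3410 and 3351 of all genes). Baat differed by 0.29 ± 0.06 in fed mice on HFD and by -0.33 ± 0.06 on fasting in p110αhep-/- mice on CTRL diet, in the direction of Slc27a5 in both. In that fasting comparison 4 of the 6 genes rose and only 1, Baat, fell (median 0.32). Over all genes 3355 rose and 3924 fell there.

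Markers of liver cell types were read beside these results. Endothelial marker sums had medians of 12620 to 16280 in p110αhep+/+ and of 16320 to 18900 in p110αhep-/- groups. Of 6 endothelial genes, 5 were higher in p110αhep-/- liver in fasted mice on HFD and 3 in fasted mice on CTRL diet (36.9% and 24.9% of all genes were called). In fed mice 1 was higher and 1 lower on each diet (21.7% and 33%), the lower one being Lyve1, a marker of sinusoidal endothelium, at -1.13 ± 0.23 on CTRL diet and -0.82 ± 0.23 on HFD. Macrophage sums had medians between 27510 and 35840 and stellate cell sums between 25740 and 35840 over the 8 groups. In the genotype comparisons at most 2 of 6 macrophage and 2 of 5 stellate genes were called. On HFD the stellate genes Pdgfrb (0.46 and 0.61) and Dcn (0.35 and 0.38) were higher in fed and fasted p110αhep+/+ mice (24% and 16% of all genes called). Stellate medians there went from 25740 to 33180 and from 27390 to 35840. In p110αhep-/- mice they went from 28950 to 32110 and from 28610 to 33330, with 0 of 5 genes called (12.3% and 10.8%). The macrophage marker Cd68 was higher on HFD in fasted p110αhep+/+ mice, by 0.49. Hepatocyte marker sums ranged from 1379000 to 1487000 in fed p110αhep+/+ and from 1505000 to 1595000 in fed p110αhep-/- mice on CTRL diet. On HFD they ranged from 1399000 to 1468000 and from 1489000 to 1578000. In fasted mice the genotypes overlapped on both diets. In fed p110αhep-/- liver 2 of 6 hepatocyte genes were higher on CTRL diet, and 2 higher and 1 lower on HFD (21.7% and 33% of all genes called). The part of these cells in the differences of the 6 genes was not tested.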

How the data were processed

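Each of 48 livers was hybridised to 1 one-colour Agilent array. The authors labelled total RNA with cyanine 3 and scanned the arrays with Agilent Feature Extraction (10.10.1.1, per the submitters' processing notes), and the deposited scanner files hold the intensity of each spot before normalization. A deposited table holds log2 values that the authors filtered, corrected for the washing batch and quantile normalised (32437 probes). It was used as an alternative. The scanner files also name the genes and place the probes on mm9.

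The log2 median signal of spots that are not controls or outliers was averaged per probe. Probes well above background on at least 5 of 6 arrays in at least 1 group were kept (30793 of 56605). The washing batch (2 batches of 3 slides) was removed with group means protected, and arrays were quantile normalised. A model of 8 group means with array weights was fitted to all 48 arrays (limma 3.58.1, R 4.3.3, statmod 1.5.0). For each of 18 comparisons the Benjamini-Hochberg adjustment covered every probe that passed. The brightest probe stood for its gene. Errors beside log2 differences are standard errors, and intervals are 95%. The fit was tested on simulated data for fasting in p110αhep+/+ mice on CTRL diet (20472 genes), where it called 196 of the 200 genes given a log2 difference of 1, and 9 others.

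Groups come from the sample labels. Precision is limited by having 6 arrays per group. The members and gene lists were chosen with earlier results of these data known. Genes named are the 6 members, Pik3ca, the 3 genes most correlated with each member, and from each list at most 4 genes of smallest adjusted p in a comparison. Cell type markers and list genes that did not pass the filter are named besides. Promoters are from a RefSeq table (GRCm38.p6); that of Slc27a5 was not used here. Alternatives covered background correction, scaling, filter, batch, slide, weights, probes, threshold and each array left out. 1 gene of the lipoprotein uptake list is not reported here by name.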

Additional observations from a re-analysis of the deposited data

Results flagged for a closer look

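In 4 of 48 sets of 6 mice (6 genes in 8 groups), 1 mouse stood apart from the others by Dixon's test, which chance alone does in about 1 of 20. These were Slc27a1 in replicate 3 of the fed p110αhep+/+ group on HFD (8.774, next 8.263), Slc27a2 in replicate 3 of the fed p110αhep-/- group on HFD (16.449, next 16.86), Slc27a4 in replicate 2 of the fed p110αhep-/- group on CTRL diet (8.084, next 7.381) and Slc27a5 in replicate 4 of the fed p110αhep+/+ group on CTRL diet (17.333, next 17.224). The Slc27a2 value came from an array that was nearest to another group over all genes.

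A response differed between groups, by the interaction term, in 6 of 36 cases, where 2.36% to 8% of all genes were called in each comparison. The HFD response in fed mice differed between genotypes by 1.25 for Cd36, 0.816 for Slc27a1 and 0.329 for Slc27a2 (p110αhep-/- minus p110αhep+/+). The calls for Cd36 and Slc27a2 were each lost under 10 of 19 other settings. The fasting response of p110αhep-/- mice differed between diets by -1.01 for Slc27a1 and -0.512 for Slc27a2 (HFD minus CTRL). The fasting response on CTRL diet differed between genotypes by -0.331 for Slc27a5, a call also lost under 10 of 19 other settings.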

How the results depend on the processing

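Of the 24 differences of the 6 genes on fasting, 24 on HFD and 24 by genotype and of 36 between responses, 7, 11, 10 and 6 were called. Over all genes, 28.6% to 35.5% were called in the fasting comparisons and 10.8% to 24% in those of HFD. For genotype the share was 21.7% to 36.9%, and between responses 2.36% to 8%. Leaving out 1 array gave 7 to 7, 10 to 12, 9 to 11 and 3 to 7 calls. With a fold change above 1.5 also required, 4 fasting, 5 genotype and 3 response calls were left. Washing batch 2 alone (3 arrays per group) gave 6 HFD, 4 genotype and 1 response call. The response calls fell to 3 with no filter on dim probes, 3 with slide as a block, 3 without array weights and 3 with only the arrays of the groups compared. With the replicate number as a block the counts were 7, 10, 10 and 4. The numbers did not pair the mice (median correlation of same-numbered arrays 0.0117, lowest -0.351, and 15 of 48 arrays closest to their own number). The remaining settings kept each count within 1.5 times. The sign turned with a call on either side in washing batch 2 alone for Cd36 on fasting in p110αhep-/- mice on HFD (1.02) and with the other Slc27a4 probe for genotype in fasted mice on HFD (-0.27). The cause was not tested. Leaving out the 2 arrays nearest to another group, the 6 arrays with Adipoq above background, or using the other probes of Vldlr and Slc27a4 were chosen after seeing the data. Under the other scalings the difference of the median gene was at most 0.0655 in size in any comparison. Probes near the background, such as the dimmer probe of Slc27a4, carry less certain differences.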
